A study of Mus musculus with 3 samples.

Results

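F10 and F0 are sublines of B16, a pigmented melanoma line from C57BL/6J mice, and the RNA of F10 was set against that of F0 gene by gene. A gene was compared when its symbol was intact in the deposited table and its RPKM, a read density corrected for transcript length and sequencing depth, was at least 1 in F10, in F0 or in both. This held for 10597 of the 14293 genes with a symbol. Polyadenylated RNA of F0, F1 and F10 was sequenced with a stranded kit, 1 library for each subline, and F1 is given only beside the others; where 3 values follow each other they are in the order F0, F1, F10. All sublines were kept in high-glucose DMEM with 8% serum for no more than 10 passages after thawing, and RNA was taken from subconfluent monolayers. The labels name no treatment and no engineered allele, call the sublines subclones and give no history of their selection. They are cell cultures and not tumours.

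B16 sublines carry numbers for rounds of selection through lung colonies in mice, and F10 is commonly used as the more metastatic derivative of F0. Melanoma cells keep much of the melanocyte programme, in which Mitf and Sox10 drive the pigment enzymes and the melanosome proteins. Tumour cells in culture can also hold a low, constant level of interferon signalling, in which a complex that holds Stat2 and Irf9 binds interferon response elements and turns on antiviral and antigen presentation genes that make a cell visible to T cells and natural killer cells.

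All of the 11 melanocyte markers in the table passed 1 RPKM, and their levels summed to 10730, 9394 and 8885 RPKM, with Tyr at 170, 149 and 148 and Sox10 at 68.9, 59.5 and 89.5. Leukocyte markers summed to 1.51, 1.73 and 2.70 RPKM, with Ptprc listed at 0 in F0 and in F10, and keratinocyte markers to 0.981, 1.16 and 1.55. From the steps in the low values, a transcript of 1 kb at 1 RPKM was estimated to hold 5.45, 6.33 and 5.39 fragments, and the median compared gene 122, 142 and 119. At 1 kb the limit that 3 fragments set was 0.573 RPKM in F0 and 0.579 in F10. Each subline had a single library, so no difference here has a replicate spread or a test, and the subline, the culture and the library cannot be told apart. Differences are of log2(RPKM + 1), F10 minus F0, which understates the folds of low genes. Ratios are of RPKM itself, the higher library over the lower, with 95% counting intervals from the estimated fragments that cover counting error only.

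Most genes read nearly alike. The median difference was -0.01, the middle of the distribution from the lower to the upper quartile ran from -0.24 to 0.22, and 87.7% of genes lay within 1.5-fold. At least 2-fold apart were 337 genes, 3.18% of those compared, with 165 higher in F10 (1.56%) and 172 lower (1.62%). Only 1 of the libraries reached 1 RPKM for 94 of the higher and 71 of the lower genes, so that the filter left them no other direction, and among genes at 1 RPKM or more in both libraries 71 were higher and 101 lower. A 4-fold difference was reached by 19 genes upward and 25 downward. The share at least 2-fold apart was 11.4% of the 1081 genes averaging under 2 RPKM, 4.74% of 1899 genes from 2 to 5 RPKM, 1.86% of 4404 genes from 5 to 20, 1.19% of 2614 genes from 20 to 100 and 1.84% of 599 genes above 100. In that most abundant class 3 genes were higher and 8 lower.

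**Figure D1:**
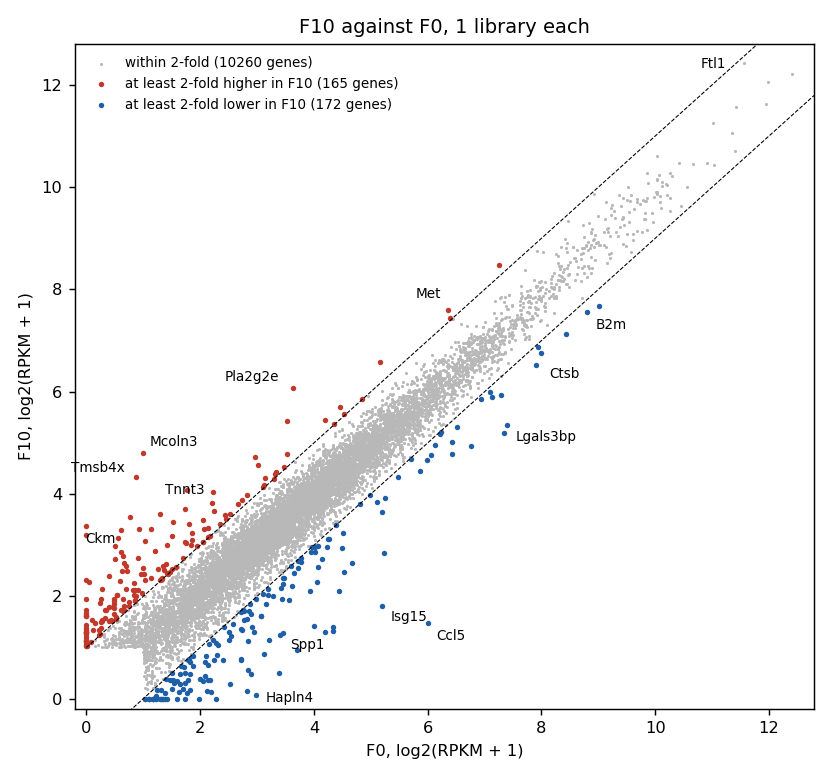
Level of each of the 10597 compared genes in F0 (x axis) and F10 (y axis), both as log2(RPKM + 1), 1 point per gene. Dashed lines mark 2-fold; the 165 red points lie above them and the 172 blue points below, with Mcoln3 the farthest above and Ccl5 the farthest below.

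Interferon-stimulated genes stood out among the genes below F0. Of the 172 genes at least 2-fold lower in F10, 40 (23.3%) stood on the lists of interferon response and antigen presentation genes, as did 14 of the 40 largest. Over the whole interferon list 71 of 84 genes in the table were compared, and 33 were at least 2-fold lower and 0 higher, where 1.62% of all compared genes were that much lower. The median difference was -0.90, 62 members lay below their F0 value and 9 above (51% of all compared genes lay below and 49% above), and the summed level was 1384, 1046 and 667 RPKM. F10 stood lowest and F1 between the others. Of the 71, 17 reached 1 RPKM in F0 alone, which left those no other direction. Over all 84 the median was -0.74. Where both libraries held at least 1 RPKM, 19 members were at least 2-fold lower, beside 101 of all 10041 such genes. In bulk RNA, fewer cells with a programme and less of its RNA per cell cannot be told apart.

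Many promoters of these genes, though not all, carry letters to which interferon factors bind. The motif GAAANNGAA, the core of the interferon response element, was looked for on both strands in the stretch from 250 bases before to 50 after the most upstream start of each gene, taken from RefSeq (GRCm38.p6). The 8 stretches below are those of listed genes with the highest F0 levels among matches upstream of the start, and they show what the matches look like in genes that were lower in F10 and in Ifitm2, which was within 2-fold. Letters in capitals mark the matches, read 5′ to 3′ on the strand of the gene, and runs that overlap are written as 1 block.
B2m: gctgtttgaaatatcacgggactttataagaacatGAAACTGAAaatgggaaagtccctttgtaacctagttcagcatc
Bst2: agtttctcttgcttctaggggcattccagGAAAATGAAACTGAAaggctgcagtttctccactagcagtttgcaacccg
Isg15: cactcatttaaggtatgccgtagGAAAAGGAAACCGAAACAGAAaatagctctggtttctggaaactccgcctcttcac
Irgm1: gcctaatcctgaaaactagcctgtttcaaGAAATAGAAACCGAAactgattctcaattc
Ifit3: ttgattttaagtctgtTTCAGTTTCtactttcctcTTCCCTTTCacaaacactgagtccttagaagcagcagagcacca
Ifit1: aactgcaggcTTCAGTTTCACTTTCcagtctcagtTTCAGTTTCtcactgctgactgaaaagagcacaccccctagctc
Rsad2: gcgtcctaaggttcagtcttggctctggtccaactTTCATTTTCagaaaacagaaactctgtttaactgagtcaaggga
Ifitm2: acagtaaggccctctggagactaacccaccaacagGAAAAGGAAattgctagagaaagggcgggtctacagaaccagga

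These stretches lie at chr2:122147513-122147591 on the plus strand for B2m, chr8:71537553-71537631 on the minus strand for Bst2, chr4:156200841-156200919 on the minus strand for Isg15 and chr11:48871421-48871479 on the minus strand for Irgm1. They lie at chr19:34583392-34583470 on the plus strand for Ifit3, chr19:34640770-34640848 on the plus strand for Ifit1, chr12:26456528-26456606 on the minus strand for Rsad2 and chr7:140955964-140956042 on the minus strand for Ifitm2. Isg15 and Ifit1 hold 3 matches each, Bst2, Irgm1 and Ifit3 hold 2, and B2m, Rsad2 and Ifitm2 hold 1.

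A promoter sequence was found for 8503 of the compared genes, and 575 of them (6.76%) held the motif. It was in 35 of 124 genes at least 2-fold lower in F10 (28.2%) and in 11 of 123 at least 2-fold higher (8.94%). Of the antiviral effectors, 21 of 38 held it (55.3%). Within them it was in 14 of the 20 that were at least 2-fold lower and in 7 of the 18 that were not. Lower genes that are on neither list held it in 15 of 91 (16.5%). These 15 include the interferon-induced chemokine Cxcl10, so genes on neither list are not all outside the interferon response. The letters TTCNNNGAA, the core of the STAT binding site and the same on both strands, were in 6.83% of all promoters, in 10.5% of lower genes and in 5.69% of higher genes. Among antiviral effectors they were in 9 of 38 (23.7%), and in 7 of the 20 that were at least 2-fold lower. A match describes letters and not binding, and a window of this length leaves out more distant sites.

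Ligand receptors and their kinases stood apart from the genes they act on. Of the 9 compared, the interferon gamma receptor chain Ifngr1 read 4.98, 5.27 and 7.45 RPKM, and the kinase Jak1 read 16.8, 19.1 and 24.3, a ratio of 1.45 (1.22 to 1.71). The type I receptor chains Ifnar1 (11.6 and 10.3 RPKM in F0 and F10) and Ifnar2 (15.6 and 12.6) and the kinase Jak2 (6.25 and 6.16) had counting intervals that include no difference. The median of this group was 0.21, above that of all genes. Its one member beyond 2-fold was Usp18, which strips Isg15 from proteins and damps the receptor and is itself interferon-induced, at 4.74, 3.80 and 0.213 RPKM, the last resting on 1 estimated fragment (ratio 22.3, 4.58 to 1133).

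The transcription factors were split. Irf9, the DNA-binding partner of Stat2, read 9.88, 9.88 and 2.88 RPKM, a ratio of 3.43 (2.34 to 5.04), so that only F10 was low. Stat2 read 5.77, 4.74 and 2.62 RPKM, with a ratio of 2.21 (1.63 to 3.06). Its difference was -0.90, in a stretch of chromosome 10 where the 40 neighbouring genes had a median of -0.35. Irf7, the inducer of type I interferon genes, read 2.13, 1.73 and 0.213 RPKM on 2 estimated fragments in F10. Irf1 (6.14 and 4.93 RPKM in F0 and F10), Irf3 (8.53 and 10.3) and Irf2 (4.65 and 6.60) had intervals that include no difference. Irf9 is a gene of chromosome 14, where the 40 neighbouring compared genes had a median of -0.21.

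Among sensors of foreign nucleic acid and their adaptors 5 of 9 were at least 2-fold lower, beside 1.62% of all compared genes, and the median was -1.06 (-0.84 over all 10 in the table). Trim25, a ubiquitin ligase that activates the RNA sensor Ddx58, read 14.3, 7.93 and 3.32 RPKM, a ratio of 4.30 (3.45 to 5.40). Dhx58, a relative of Ddx58 that tunes RNA sensing, read 5.57, 4.19 and 0.703. The DNA sensor Mb21d1, also known as cGAS, read 5.79, 3.68 and 2.25, a ratio of 2.57 (1.80 to 3.72). The adaptors downstream did not follow them to 2-fold: Mavs read 18.3 RPKM in F0 and 15.2 in F10, and Tmem173, also known as STING, read 19.2 and 19.7.

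Antiviral effectors were the largest group, with 44 of 45 below their F0 value, 25 at least 2-fold lower and a median of -1.08. Of all compared genes 51% lay below F0 and 1.62% were at least 2-fold lower. Of these 45, 14 reached 1 RPKM in F0 alone, and over all 54 in the table the median was -0.92. Bst2, which tethers budding virus to the cell, read 107, 86.5 and 29.8 RPKM, a ratio of 3.60 (2.93 to 4.43). The secreted glycoprotein Lgals3bp read 167, 96.8 and 39.8, a ratio of 4.18 (3.50 to 5.03), and Ifitm3, which blocks viral entry, read 155, 119 and 60.2, a ratio of 2.57 (2.19 to 3.03). In each of these the levels ran downward from F0 through F1 to F10.

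The immunity-related GTPases Irgm1, Irgm2 and Igtp read 21.6, 4.28 and 3.54 RPKM in F0 against 6.69, 0.697 and 0.0932 in F10, with Igtp on 1 estimated fragment there. Rsad2, also known as viperin, read 15.8, 8.60 and 4.98 RPKM (ratio 3.18, 2.52 to 3.997), and the RNA-activated kinase Eif2ak2 read 17.3, 12.6 and 8.97, short of 2-fold at a ratio of 1.93 (1.63 to 2.29). Ifit3, Oas1a, Oas1g and Trim12a were also among the 40 largest lower genes. They belong to families of near-identical copies among which reads may be divided, and so are uncertain.

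Some effectors, picked after their values were seen, stayed close to F0. Ifit2, a neighbour and relative of Ifit1, read 16.8 RPKM in F0 and 14.7 in F10 (ratio 1.15, 0.933 to 1.41), whereas Ifit1 read 19.2 and 1.64 (ratio 11.7, 7.69 to 18.9). Ifitm2 read 130 and 114 (ratio 1.14, 0.99 to 1.31) beside its relative Ifitm3. Adar, the RNA-editing enzyme, read 11.6 and 9.70, and Pml, which builds nuclear bodies, read 10.2 and 8.76, both with intervals that include no difference. Tdrd7 was the one compared effector above F0, at 7.39 and 8.55 RPKM.

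**Figure D2:**
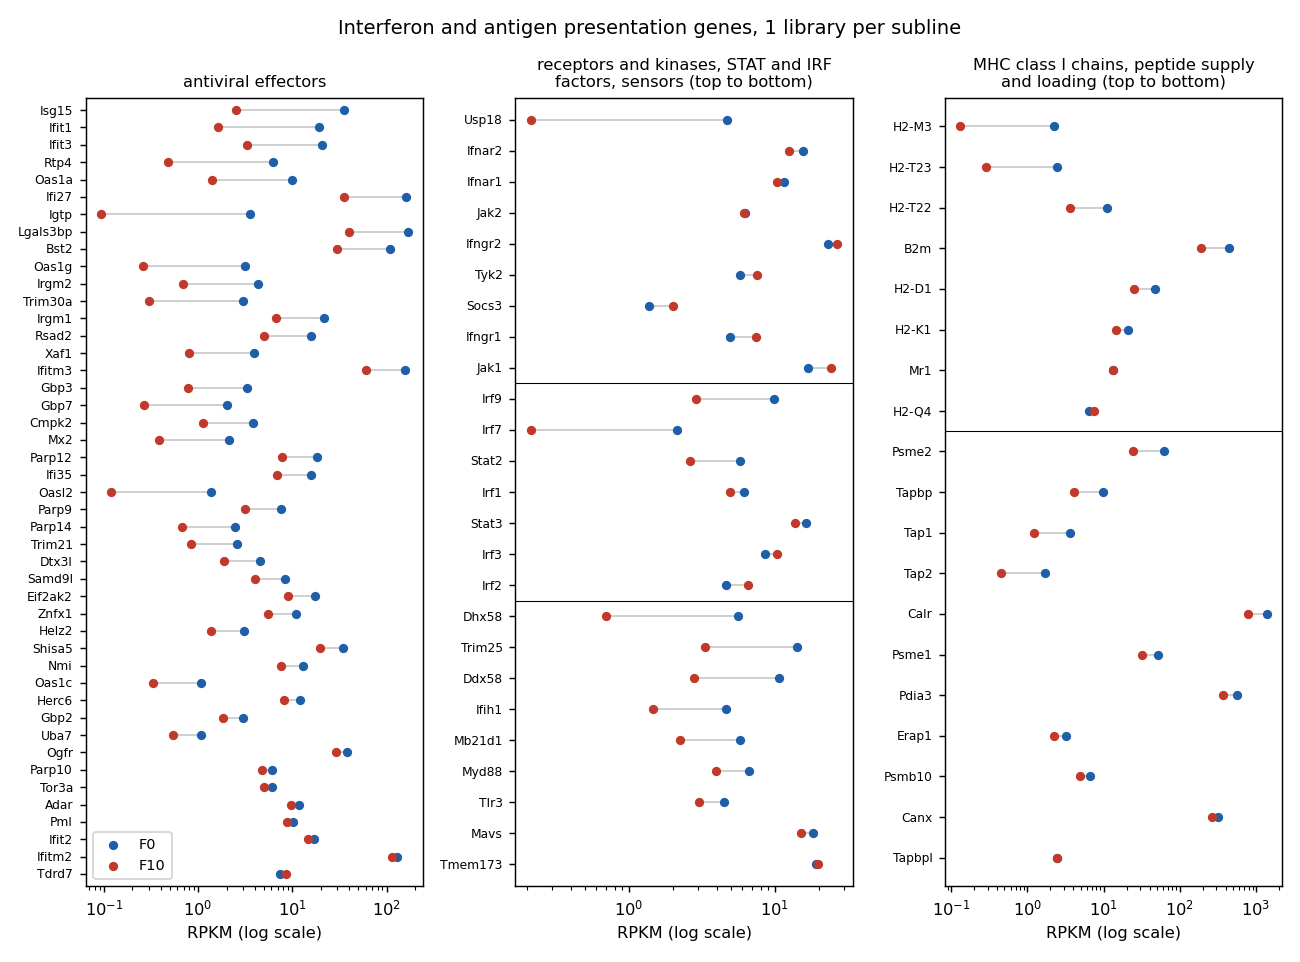
RPKM on a log axis of the compared interferon and antigen presentation genes reported here, in F0 (blue) and F10 (red), 1 library each, joined by a line and ordered within each group by their difference; horizontal rules part the groups. Of the 45 effectors 44 lie below F0, while Jak1, Ifngr1 and Irf2 lie above it.

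Antigen presentation on MHC class I followed, with 7 of 19 compared genes at least 2-fold lower, 0 higher and a median of -0.82, where 1.62% of all compared genes were that much lower. Of the 19, 3 reached 1 RPKM in F0 alone, and over all 25 in the table the median was -0.49. Held to 5 RPKM in either library, 4 were lower. B2m, the light chain that all class I molecules share, read 444, 341 and 187 RPKM, a ratio of 2.37 (2.19 to 2.58). The classical heavy chains H2-D1 (46.5, 48.4 and 24.98 RPKM) and H2-K1 (21.1, 23.3 and 14.7) were lower only in F10, and not to 2-fold, and as members of a multigene family they are uncertain. Among genes that supply and load peptides, the proteasome activator subunit Psme2 read 62.3, 43.9 and 24.4 RPKM, a ratio of 2.55 (2.03 to 3.27), while its partner Psme1 read 51.2, 38.6 and 32.2. The loading chaperone Tapbp read 9.91, 7.12 and 4.11 on 20 and 8 estimated fragments in F0 and F10. These fragment numbers rest on the median length of its annotated transcripts and may be too low. Calr, an abundant chaperone with roles beyond class I, read 1397, 1426 and 791 RPKM, a ratio of 1.76 (1.72 to 1.81). Psme2 lies on chromosome 14 close to Irf9.

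Chemokines, cytokines and surface ligands through which a tumour cell meets immune cells held 9 of 24 compared members at least 2-fold lower and 0 higher, beside 1.62% and 1.56% of all compared genes. Of the 24, 5 reached 1 RPKM in F0 alone, and the median was -0.43 over the 24 and -0.11 over all 42 in the table. Ccl5, which attracts T cells and stood lowest of all compared genes, read 62.9, 7.55 and 1.77 RPKM, a ratio of 35.4 (14.1 to 104). Most of that difference was already present in F1. Spp1, the secreted matrix protein osteopontin, had the same shape at 19.2, 2.37 and 1.498 RPKM, and the interferon-induced chemokine Cxcl10 read 24.6, 11.2 and 5.31, a ratio of 4.63 (3.18 to 6.91). Lgals9, a galectin that binds receptors on T cells, read 84.9, 68.0 and 26.5, a ratio of 3.20 (2.74 to 3.75). Tgfb1, a cytokine that restrains T cells, read 6.86, 3.45 and 2.88 RPKM. In the other direction Mif, a secreted cytokine, read 340, 295 and 509 (ratio 1.495, 1.38 to 1.63), the poliovirus receptor relative Pvrl2 7.43, 7.27 and 13.1 and the checkpoint ligand Cd276 3.86, 2.67 and 5.98, none of them to 2-fold. The NKG2D ligands Raet1e, Raet1a and Raet1c were each at least 2-fold lower, but are near-identical copies and uncertain.

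Genes of the contractile apparatus of skeletal muscle were the counterpart among higher genes, at low levels. The list was drawn up with earlier results of these data known. On it 36 contractile and junction genes were in the table and 20 were compared, 13 of them because F10 alone reached 1 RPKM, which left those no other direction. Over all 36, whatever their level, 30 lay above their F0 value and the median difference was 0.58. Of the 20 compared, 14 were at least 2-fold higher (1.56% of all compared genes were). Their median level was 0.597, 1.11 and 4.62 RPKM and their median difference 1.36, values that the filter itself set in large part. Among the 40 largest higher genes, 10 were on the muscle list. Where both libraries held at least 1 RPKM, 4 genes of that list were at least 2-fold higher, beside 71 of all 10041 such genes.

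Several of the higher genes belong to fast fibres. Tnnt3, the fast troponin T, read 3.64, 2.70 and 13.2 RPKM, a ratio of 3.62 (2.18 to 6.46). Its partners Tnni2 (0.559, 2.40 and 5.93 RPKM) and Tnnc2 (0.539, 1.39 and 4.63) each rested on 2 estimated fragments in F0, with ratios of 10.6 (2.46 to 89.2) and 8.59 (1.90 to 72.5). The muscle creatine kinase Ckm read 0.527, 1.47 and 6.26, a ratio of 11.9 (4.84 to 31.4), and the calcium pump of the muscle reticulum, Atp2a1, read 0.867, 1.35 and 5.70, a ratio of 6.57 (3.24 to 13.9). F10 was the highest library for all of these, while F1 lay above F0 for some and below it for others. Over the 20 compared genes F1 was above F0 for 15 and below it for 4.

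Myosins and actin gave the same order. The fast myosin heavy chain Myh4 read 0.632, 0.876 and 4.61 RPKM (ratio 7.28, 4.64 to 12.5), on 20 and 147 estimated fragments in F0 and F10, and Myh1 read 0.524, 0.533 and 2.34. The light chains Mylpf (5.68, 6.16 and 13.7) and Myl1 (2.49, 1.18 and 9.62) and skeletal actin Acta1 (3.15, 3.57 and 10.2) had ratios of 2.42 (1.31 to 4.61), 3.87 (1.99 to 9.07) and 3.24 (1.83 to 5.91). Jph2, a junction protein of muscle membranes, was listed at 0 in F0 and in F1 and read 4.01 RPKM in F10, on 90 estimated fragments, and oxygen-binding Mb, myoglobin, read 0.577, 0.870 and 5.25. The slow and cardiac forms Tnnt1, Tnnt2, Tnnc1, Tnni1 and Myh7 did not pass the filter, and of these only Tnnt1, at 0.188 RPKM, was not listed at 0 in F10. Des and Tpm1, which are among the 20, are also made by other cells.

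The regulators of the muscle lineage were not part of this. Myod1 was listed at 0 in F0 and in F1 and read 0.102 RPKM in F10, Myf6 read 0.151 RPKM in F10, and Mef2a, Mef2c, Mef2d and Six4 lay within 2-fold. The 10 compared genes listed as regulators include the small heat shock protein Hspb8, which is not a lineage factor and other cells also express. Hspb8 was the only 1 of them at least 2-fold higher, at 0.515, 0.973 and 8.84 RPKM (ratio 17.2, 7.08 to 54.3). Defining markers of skeletal muscle cells summed to 16.9, 18.8 and 58.6 RPKM, and 9 of the 10 in the table lay above F0. Of 7 compared, 3 of them through F10 alone, 6 were at least 2-fold higher, beside 1.56% of all compared genes. Myod1 was near 0, and the embryonic myosin Myh3 read 0.0934 and 0.157 in F0 and F10. Fibroblast markers summed to 15.4, 8.12 and 22.2 RPKM. Whether cells of another type took part was not tested. Of the 20 compared genes 5 are on chromosome 7, where 76.0% of compared genes lay above F0.

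**Figure D3:**
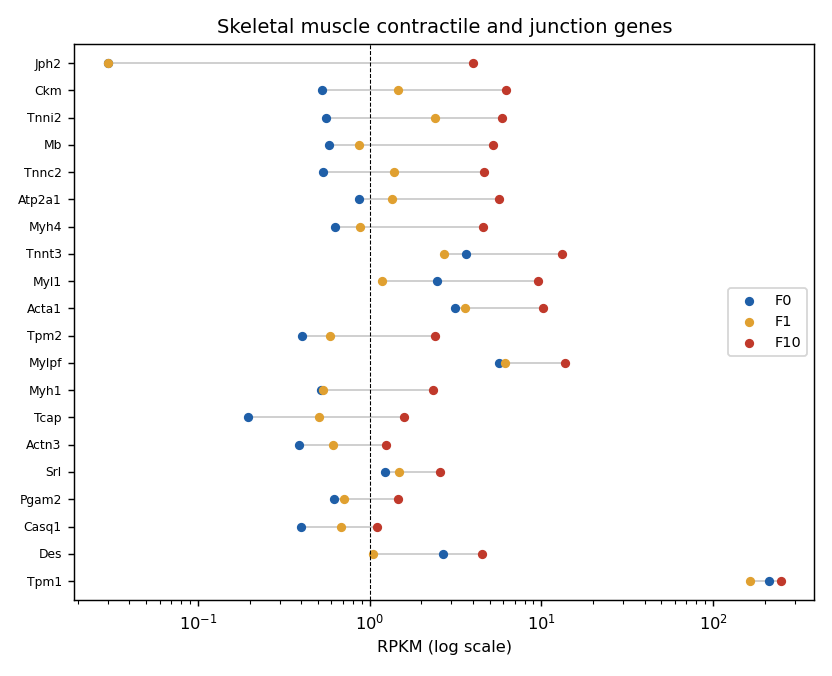
RPKM on a log axis of the 20 compared contractile and junction genes of skeletal muscle in F0 (blue), F1 (yellow) and F10 (red), 1 library each; Jph2 is listed at 0 in F0 and F1 and is drawn at the left edge. The dashed line is 1 RPKM; F10 is the rightmost point of every gene, 13 of which passed the filter through F10 alone.

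Pigment genes were abundant in both sublines and slightly lower in F10. Of 12 compared, 11 lay below F0, beside 51% of all compared genes. The 12 had a median of -0.34 and a summed level of 12719, 10789 and 10238 RPKM. Pmel, which forms the fibrils of the melanosome, read 2714, 2183 and 1669 RPKM, a ratio of 1.63 (1.57 to 1.68). Mlana read 1505, 988 and 1024.5 and the membrane protein Gpnmb 1922, 1425 and 1420, so that F1 and F10 lay together below F0. Tyrp1, a melanin enzyme, was the exception at 2755, 2864 and 3030 RPKM, a ratio of 1.10 (1.08 to 1.12) in favour of F10. Cited1, a transcriptional cofactor of pigment cells, was the one gene beyond 2-fold, at 84.9, 50.6 and 31.4 (ratio 2.70, 2.13 to 3.45). The letters CATGTG, an E-box that Mitf binds, were in the promoters of 6 of the 8 pigment genes with a sequence (75%) against 8.01% of all.

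Regulators and receptors of the lineage, listed together with the channel Mcoln3, leaned the other way, with 10 of 12 above F0 and a median of 0.24. Of all compared genes 49% lay above F0. Of the 12, Mcoln3 reached 1 RPKM in F10 alone, and over all 14 in the table the median was 0.14. Mitf itself read 57.9, 43.9 and 62.8 RPKM, with an interval that includes no difference, and Sox10 had a ratio of 1.30 (1.19 to 1.41). The melanocortin receptor Mc1r read 37.9, 41.6 and 57.5, a ratio of 1.52 (1.38 to 1.67). Met, the receptor of hepatocyte growth factor, read 81.2, 99.6 and 192, a ratio of 2.36 (2.20 to 2.53), on 1095 and 2555 estimated fragments. Mcoln3, a cation channel of endosomes and lysosomes, was the highest-ranked gene of the comparison at 0.980, 5.99 and 27.0 RPKM on 9 estimated fragments in F0 (ratio 27.5, 14.3 to 61.1). Its relatives Mcoln1 (21.7 and 18.6 RPKM in F0 and F10) and Mcoln2 (7.66 and 3.84) were not higher.

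Lysosomal genes were lower as a body by a small amount. Of 41 compared, 36 lay below F0, beside 51% of all compared genes. The median was -0.36, and the list summed to 4124, 3607 and 3103 RPKM. The protease Ctsb read 240, 166 and 90.9, a ratio of 2.64 (2.51 to 2.77) on 6149 and 2306 estimated fragments, and the mannosidase Man2b1 read 30.8, 24.4 and 14.7. The hexosaminidase chain Hexa read 220, 178 and 135, with a ratio of 1.63 (1.52 to 1.74). Man2b1 and Ctsb were the only compared members of the lysosome list at least 2-fold lower (4.88%), and Mcoln3 the only one higher (2.44%). Of all compared genes 1.62% were lower and 1.56% higher by that much.

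The unfolded protein and integrated stress responses, which slow translation and raise chaperones when folding fails, read lower in F10 than in F0. Of 28 compared members 23 lay below F0, beside 51% of all compared genes, and the median was -0.35. Herpud1, which helps clear misfolded proteins from the endoplasmic reticulum, read 244, 376 and 116 RPKM, a ratio of 2.11 (1.96 to 2.26). The chaperone partner Dnajb9 read 33.4, 68.6 and 13.4 and the factor Atf3 12.6, 60.9 and 5.34. F1 was the highest library for all of these and F10 the lowest. Atf5, a stress-induced factor, was the exception at 27.7, 75.1 and 57.4 RPKM, a ratio of 2.07 (1.78 to 2.41) in favour of F10. Of the genes for redox defence and glutathione use, 34 of 46 lay below F0, beside 51% of all compared genes. Hmox1, which degrades haem, read 344, 1283 and 139 RPKM, and Gpx4, which clears lipid peroxides, read 208, 141 and 130 (ratio 1.61, 1.46 to 1.78). The glutathione transferase Gsta4 went the other way at 10.5, 2.51 and 42.3, a ratio of 4.02 (2.91 to 5.66), as did Ddah2, which degrades methylated arginine, at 0.418, 3.24 and 6.86 on 3 estimated fragments in F0. Gstt1 read 3.24, 0.618 and 0.363 RPKM. Gstp2 (254, 190 and 108) shares near-identical sequence with Gstp1 and is uncertain.

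Small heat shock proteins differed in both directions among themselves. Hspb1 read 17.3, 8.88 and 1.46 RPKM, a ratio of 11.9 (5.45 to 30.1), while Hspb8 was among the largest higher genes. Cryab read 280, 160 and 226 and Hspb6 4.36, 5.69 and 7.25. The 32 compared cytosolic heat shock genes had a median of 0.03.

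In central metabolism the differences were small and mostly upward. Of all compared genes 49% lay above F0. Glycolysis genes lay above it in 21 of 26 cases with a median of 0.21. Slc16a3, which exports lactate, read 6.81, 12.5 and 25.4 RPKM, a ratio of 3.74 (2.78 to 5.05). Eno1 (1047, 943 and 1564 RPKM), Aldoa (732, 892 and 1025) and the hexokinase Hk2 (17.9, 19.9 and 26.7) had ratios of 1.49 (1.44 to 1.55), 1.40 (1.33 to 1.47) and 1.49 (1.27 to 1.74). Genes of cholesterol and fatty acid synthesis lay above F0 in 27 of 36 cases with a median of 0.12, including fatty acid synthase, Fasn, at 42.2, 27.7 and 71.0 (ratio 1.68, 1.59 to 1.78). The regulator of mitochondrial genes Ppargc1a read 3.66, 4.54 and 15.4, a ratio of 4.22 (3.13 to 5.80). Hypoxia genes showed no common direction, with Epas1, an oxygen-regulated factor, at 1.46, 1.32 and 4.01 and the oxidase Ero1l at 136, 268 and 62.8 RPKM.

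Inositol and lipid mediators held some of the widest differences. Isyna1, which makes inositol phosphate from glucose phosphate, was listed at 0 in F0 and read 14.1 and 9.33 RPKM in F1 and F10, the latter from 53 estimated fragments. Ippk, which makes phytic acid, read 21.96, 31.003 and 4.58, a ratio of 4.79 (3.81 to 6.09). The secreted phospholipase Pla2g2e read 11.4, 40.1 and 66.2, a ratio of 5.81 (4.26 to 8.18). Both prostaglandin D synthases were lower: Ptgds read 513, 372 and 204, a ratio of 2.52 (2.33 to 2.73), and Hpgds read 15.5, 10.3 and 3.89, a ratio of 4.002 (3.08 to 5.25).

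The cytoskeleton differed in single genes. Of 47 compared actin genes 1 was at least 2-fold higher (2.13%) and 2 lower (4.26%), beside 1.56% and 1.62% of all compared genes. Tmsb4x, which holds actin monomers, read 0.835, 9.57 and 19.1 RPKM, on 3 estimated fragments in F0, and has close copies elsewhere in the genome, so it is uncertain. Its relative Tmsb10 read 779, 708 and 540. Fscn1, which bundles actin in cell protrusions, read 8.25, 6.73 and 1.20, a ratio of 6.87 (3.81 to 12.7), and Tagln2, an actin-binding protein, read 9.45, 31.3 and 0.409, on 1 estimated fragment in F10. Among microtubule genes Map1a, a stabiliser, read 0.275, 0.0277 and 2.33 (ratio 8.49, 5.18 to 15.7), and the neuronal tubulin Tubb3 read 48.3, 58.1 and 81.7. Another tubulin, Tubb2b, read 9.63, 20.2 and 1.38 RPKM, but has a near-identical copy other than Tubb3 and is uncertain. Vimentin, Vim, read 497, 458 and 483, the same within counting error in F0 and F10.

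Adhesion and matrix genes showed no common direction, with 55 of 107 above F0 and a median of 0.02, 8 at least 2-fold higher (7.48%) and 5 lower (4.67%), beside 1.56% and 1.62% of all compared genes. F11r, a tight junction molecule, read 15.1, 11.3 and 1.67 RPKM (ratio 9.04, 5.90 to 15.0), and L1cam, a neural adhesion molecule, read 16.6, 19.5 and 5.63, a ratio of 2.95 (2.24 to 3.93). Cdh19, a cadherin of the neural crest lineage, read 31.4, 37.4 and 16.3. Higher in F10 were integrin beta 5, Itgb5, at 2.61, 7.43 and 8.44 (ratio 3.23, 2.27 to 4.65), the desmosome protein Pkp2 at 1.48, 2.88 and 4.04, the gap junction protein Gja1 at 2.58, 2.32 and 7.04 on 4 estimated fragments in F0, and fibronectin, Fn1, at 3.39, 6.65 and 7.99 (ratio 2.36, 1.94 to 2.90). The fragment number of Gja1 rests on the median length of its annotated transcripts and may be too low. The F1 level lay with F10 for Itgb5 and Fn1 and with F0 for Gja1.

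The collagen folding factors Fkbp10 (1.19, 2.61 and 8.98 RPKM, ratio 7.56, 4.16 to 14.5) and Serpinh1 (210, 309 and 332, ratio 1.58, 1.505 to 1.67) were higher in F10. Fstl1, a secreted glycoprotein, read 1.45, 2.31 and 11.3, a ratio of 7.80 (5.24 to 11.6). Hapln4, which links hyaluronan to proteoglycans, read 6.94, 4.13 and 0.0527 on 1 estimated fragment in F10, and the urokinase Plau read 2.55, 0.205 and 0.402. Decorin, Dcn, and the receptor Pdgfrb, both also markers of fibroblasts, reached 1 RPKM in F10 alone, at 2.62 and 3.34.

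No gene on the developmental signalling list was 2-fold apart. Of its 70 compared members, from the TGF-beta, Wnt, Notch, Hedgehog and axon guidance pathways, none reached 2-fold in either direction. Of all compared genes 3.18% did, a share at which 70 genes would hold few. Tgfb1, described above as lower, was counted with the cytokines and not here, and its difference exceeded 2-fold. The median of the 70 was 0.11. The widest were Tcf7, a Wnt effector, at 1.83, 1.72 and 4.13 RPKM, and the receptor kinase Tgfbr1 at 5.27, 7.30 and 10.1 (ratio 1.91, 1.41 to 2.62). None of the 84 compared cell division genes was beyond 2-fold, and at 3.18% these too would hold few. The 44 replication genes had a median of -0.08 and the 40 mitosis genes of -0.14, with Ccnb1, the cyclin of mitotic entry, at 105, 84.3 and 71.1 RPKM and Ccne2, a cyclin of DNA replication, at 9.85, 5.56 and 4.50. Among p53 targets the cell cycle inhibitor Cdkn1a read 155, 83.3 and 78.4 (ratio 1.97, 1.79 to 2.17) and the death receptor Tnfrsf10b 12.2, 4.74 and 4.86, with F1 and F10 alike below F0. Of 24 commonly used reference genes none reached 2-fold, where a share of 3.18% would leave few or none, and their median was -0.12.

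Factors that mark position along the body differed in a few members. Hoxb9 read 1.04, 2.50 and 7.47 RPKM (ratio 7.21, 4.16 to 14.5), and Hoxb13 was listed at 0 in F0 and read 0.122 and 1.15 in F1 and F10. Hoxa11 read 8.13, 5.31 and 3.08 (ratio 2.64, 1.82 to 4.01), but an antisense gene overlaps it and the use of strand in counting is not stated. The RNA-binding proteins Igf2bp3 and Igf2bp2, known from fetal growth, went opposite ways, at 6.13, 0.811 and 1.17 RPKM and at 0.813, 0.987 and 3.34, with ratios of 5.24 (3.48 to 8.28) and 4.10 (2.35 to 7.91). Among transporters and channels, the drug exporters Abcc2 (6.09, 1.96 and 0.105, on 3 estimated fragments in F10) and Abcg2 (21.7, 18.6 and 8.40, ratio 2.59, 1.599 to 4.18) and the potassium channel Kcnj13 (7.74, 1.55 and 0.838) were at least 2-fold lower, and the potassium channel subunit Kcnab2 (10.1, 11.4 and 22.1, ratio 2.20, 1.69 to 2.89) was higher.

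**Figure D4:**
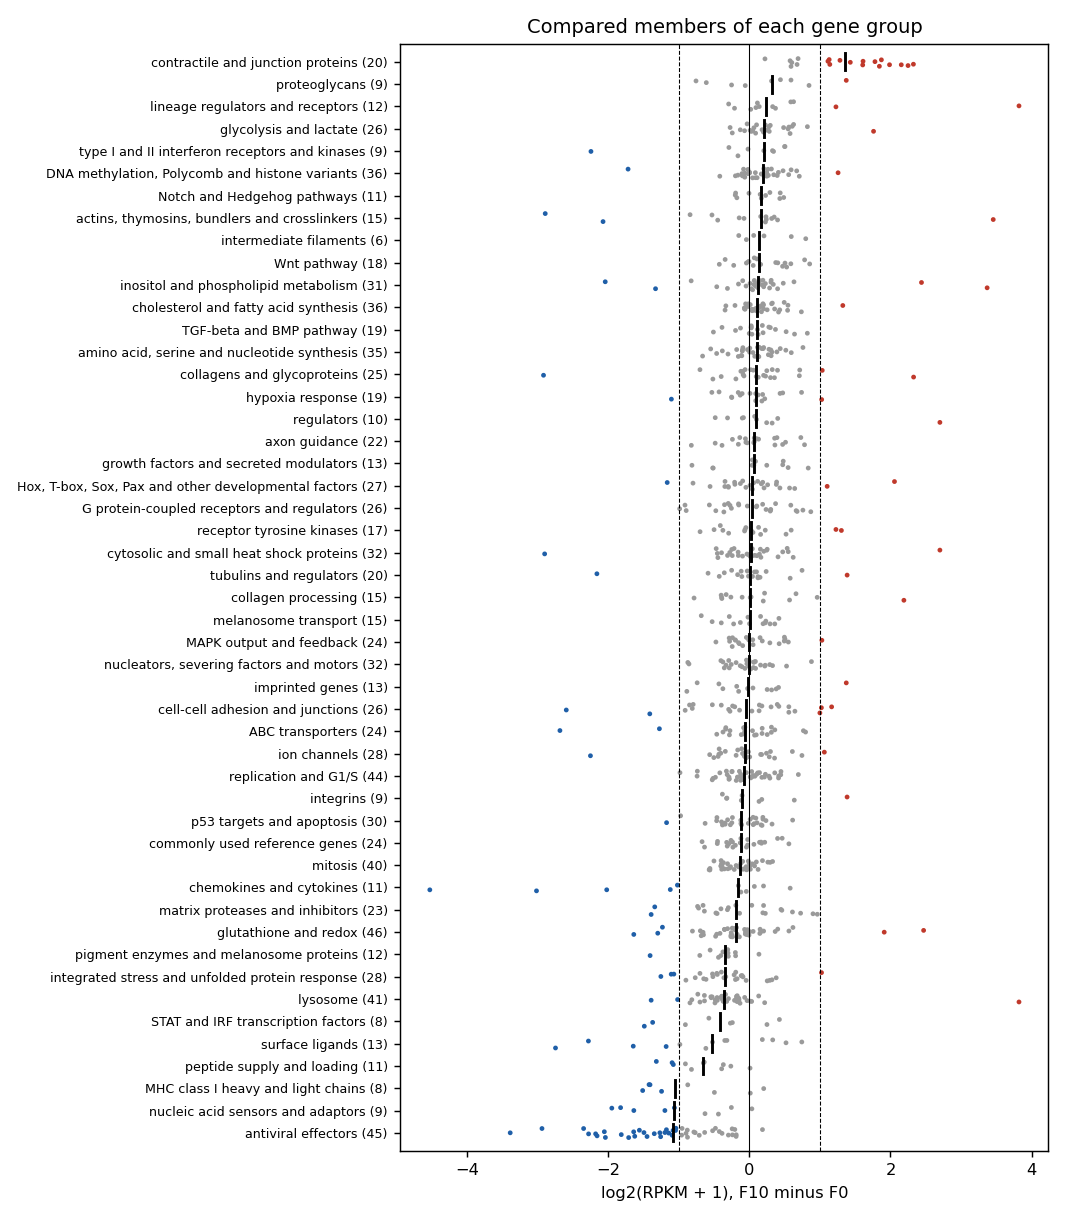
Difference of log2(RPKM + 1), F10 minus F0, of each compared gene by functional group, with the number compared in brackets; black bars are medians, dashed lines mark 2-fold, red points are at least 2-fold higher in F10 and blue points lower. Antiviral effectors (median -1.08) and contractile genes (1.36) lie at opposite ends, and most other groups centre near 0. The filter fixed the direction of 14 of the 45 effectors, through F0 alone, and 13 of the 20 contractile genes, through F10 alone. Over all members in the table, whatever their level, these medians are -0.92 and 0.58.

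Among the most abundant genes, where counting error is least, ferritin light chain, Ftl1, read 3029, 3622 and 5538 RPKM, a ratio of 1.83 (1.79 to 1.87). The ribosomal proteins Rpl36 (151, 186 and 357), Rplp1 (483, 516 and 931), Rps29 (351, 405 and 643) and Rplp2 (259, 320 and 426) were higher in F10. These genes and Ftl1 have many processed copies and are uncertain. Atp6v0c, a subunit of the proton pump, read 83.3, 99.96 and 173, a ratio of 2.07 (1.82 to 2.37), and Rcc2, a regulator of chromosome segregation, read 85.7, 103 and 171. Lower were Nedd8, a ubiquitin-like protein, at 169, 113 and 93.0, the tetraspanin Cd63 at 762, 562 and 423, and the myosin light chain Myl6 at 416, 332 and 227. In each of these 3, F1 lay between F0 and F10. They lie where neighbouring genes were also lower: the differences of Nedd8, Cd63 and Myl6 were -0.85, -0.85 and -0.87, and the medians of their 40 neighbours were -0.25, -0.47 and -0.44.

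Genes on no list also stood among the largest differences. Rab29, a small GTPase linked to lysosomes, read 36.6, 10.4 and 6.17 RPKM, a ratio of 5.94 (4.23 to 8.60), while another of the family, Rab17, read 2.32, 2.06 and 11.98, a ratio of 5.17 (3.17 to 9.03). Mid1, a microtubule-associated ubiquitin ligase, read 0.708, 1.37 and 10.7, a ratio of 15.1 (8.75 to 27.9). The inflammasome adaptor Pycard read 1.83, 6.46 and 8.03, and the receptor phosphatase Ptprb read 3.33, 0.0269 and 0.111. Mgarp, a mitochondrial protein, was listed at 0 in F0 and read 2.998 and 8.23 in F1 and F10.

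The 40 largest higher genes held others as well. Arl11, a small GTPase, read 2.39, 2.60 and 15.9 RPKM (ratio 6.65, 4.23 to 10.7), and Art5, an ADP-ribosyltransferase, read 0.893, 0.561 and 8.98. Naalad2, a peptidase, read 0.416, 7.21 and 5.67, so that F1 lay with F10. Galnt6, which starts O-linked sugar chains, read 0.0327 RPKM in F0 and 3.84 in F10, from 1 and 78 estimated fragments. Mageh1, Map7, Mlip and Pcdhgb1 were listed at 0 in F0 and read between 2.09 (Map7) and 2.83 (Mageh1) in F10. Pvalb, a calcium-binding protein of fast muscle fibres and some neurons, read 0.620, 0.710 and 5.01, from 3 estimated fragments in F0. Lhfp, C1ql3, Prr5, Fam73a, Nat8 and Hebp1 complete the group, with F10 levels from 2.66 (Hebp1) to 10.01 RPKM (Lhfp).

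On the lower side the serpin Serpinb9b read 5.61, 3.08 and 0.684 RPKM (ratio 8.198, 4.42 to 16.2). The interferon-induced genes Ifi27 and Rtp4 read 161, 127 and 35.4 and 6.16, 2.96 and 0.479, with Rtp4 from 3 estimated fragments in F10. Phyhipl, Olfml1, Moxd1 and Trim34a each read under 0.3 RPKM in F10, from 3 or fewer estimated fragments, and between 2.39 (Trim34a) and 3.51 (Phyhipl) in F0. Among abundant genes Phgdh, the first enzyme of serine synthesis, read 145, 216 and 219, Tceb2, an elongin subunit, 95.4, 112 and 159, and Eno1b, near-identical to Eno1 and uncertain, 240.2, 269 and 428.

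Just inside the 2-fold line lay Cd82 (1.97 RPKM in F0 and 4.95 in F10), Cc2d1b (8.80 and 18.6) and Zfp362 (3.49 and 8.04), and just outside it Crocc (2.20 and 5.37), Slc35f1 (2.55 and 6.06) and Krba1 (0.666 and 2.31). On the lower side Dhrs3 (11.1 and 5.03), Ropn1l (1.84 and 0.414) and Ginm1 (20.001 and 9.44) were inside and Cp (15.3 and 7.17), Sncg (3.57 and 1.29) and Ubald2 (5.19 and 2.12) outside.

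Small differences ran in long blocks along the chromosomes. On chromosome 14, 83.3% of 360 compared genes lay below F0, with a median of -0.32, and on chromosome 13, 81.1% of 371 genes did, with a median of -0.26. On chromosome 7, 76.0% of 757 genes lay above F0, with a median of 0.21, and chromosomes 12 and 4 had medians of 0.17 and 0.15. The medians of the other 15 chromosomes lay between -0.13, on chromosome 2, and 0.10, on chromosome 3. Of chromosome 14 genes 4.44% were at least 2-fold lower and 0.556% higher, and of chromosome 7 genes 1.19% were lower and 3.43% higher. In F1 the medians against F0 were -0.12 on chromosome 14, 0.09 on chromosome 13 and 0.14 on chromosome 7, and because both differences use the same F0 library they are not independent of each other.

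In medians over runs of 40 neighbouring compared genes, which overlap and share genes, 513 of 9763 runs were at -0.3 or lower and 356 at 0.3 or higher. Every run on chromosome 14 lay below 0, the highest at -0.20. The lowest run of all lay at chr8:92326033-104264938 (GRCm38), from Crnde to Cklf, with a median of -0.53 and 37 of 40 genes below F0. Within it Polr2c, an RNA polymerase subunit, read 74.3, 48.9 and 39.9 RPKM, and Got2, a mitochondrial transaminase, read 211, 138 and 133. Both were picked after their values were seen. Herpud1, described above, lies in the same run. The next lay at chr13:24987483-41022586, from Mrs2 to Tmem14c, with a median of -0.48 and again 37 of 40 below. There F1 did not share the difference, with a median of 0.09 against F0, where the run on chromosome 8 had -0.36.

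The highest run lay at chr7:43672016-45459884, from Ctu1 to Ftl1, with a median of 0.46 and 35 of 40 genes above F0, among them Atf5 and Ftl1. Others lay at chr12:110601452-113137206 (0.40) and chr4:15265831-35226175 (0.35), each with 37 of 40 genes above F0. Chromosomes could hold runs of both signs: on chromosome 8 the highest run had a median of 0.27, and on chromosome 10 runs reached 0.35 and -0.44. With GC content subtracted, the high runs of chromosomes 8 and 10 had medians of 0.10 and 0.15 and the low runs -0.51 and -0.43. The chromosome medians kept their sign where they were at least 0.1 in size and moved by less than 0.1 when genes were held to 5 RPKM or when the median of genes with like GC content was subtracted. Ctsb, Irf9, Psme2, Plau, Tnfrsf10b and Ero1l, all described above as at least 2-fold lower, are genes of chromosome 14. With the median of the 40 neighbours subtracted from every gene, an alternative chosen after seeing the data, 32 interferon genes were at least 2-fold lower. Without it 33 of 71 were. A part of chromosome position in these differences was not tested.

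**Figure D5:**
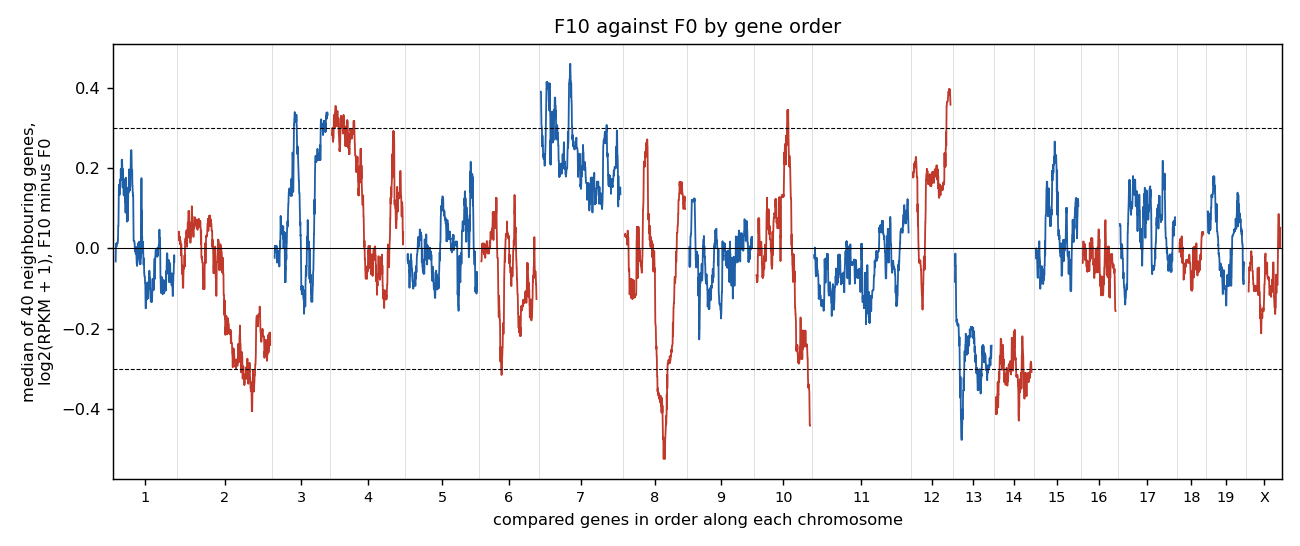
Median difference of log2(RPKM + 1), F10 minus F0, over 40 neighbouring compared genes (y axis) in gene order along each chromosome (x axis), colours alternating by chromosome; dashed lines are at -0.3 and 0.3. Chromosomes 13 and 14 lie below 0 throughout and chromosome 7 above it; the lowest point, -0.53, is on chromosome 8.

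GC content of the transcript moved with the difference. In 8 classes of GC content the median difference was -0.07 in the lowest class and 0.22 in the highest, where 44 genes were at least 2-fold higher and 9 lower. By transcript length the medians ran from -0.08 to 0.07. With the median of genes of like GC content subtracted, 30 interferon and 8 antigen presentation genes were at least 2-fold lower and 14 muscle genes higher.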

How the data were processed

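Poly(A) RNA of F0, F1 and F10 was sequenced from stranded libraries, per the labels' protocols, with 1 library per subline. The authors deposited RPKM per gene symbol. Cufflinks, TopHat, Bowtie2 and bcl2fastq appear, with the mm10 build, in the submitters' processing notes. Tool versions, annotation and strand setting were not given in the sources used here. Deposited z score columns were made by the authors on a basis not stated, and were not used.

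Of 14313 rows, 20 with a spreadsheet date in place of a symbol were left out, and genes at 1 RPKM or more in F0 or F10 were kept. Differences are of log2(RPKM + 1), called from 2-fold. RPKM below 0.001 was taken as 0. Fragments were estimated from the lowest step in the RPKM values of 1402 single-transcript genes of at least 800 bases, using length less 40 bases. The length of a gene was the median over its annotated coding transcripts, or over all transcripts where none was coding. Where short transcripts are annotated, fragment numbers can be too low and intervals too wide. Among values already close to that step, pooled over the libraries, 82.6% lay within 5% of it. With 99.5% of compared genes placed in GENCODE M21 (383 through an older symbol), runs of 40 neighbouring genes were formed. Promoters came from RefSeq. Intervals are exact Clopper-Pearson intervals at 95%. The comparison script was tested on simulated data.

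The members and gene lists were chosen with earlier results of these data known. Named genes are the 40 largest differences each way and the 12 largest each way among genes averaging at least 100 RPKM. List members, cell type markers and the 3 genes on each side of the 2-fold line are named as well. Not every list member at least 2-fold apart is described. Ifih1, Gbp3, Gbp7, Trim30a, H2-T22 and H2-T23, for example, were also lower by that much. Predicted genes, small RNAs and pseudogenes were left out. Other members named for comparison, such as receptors, adaptors, class I chains, metabolic enzymes and partners of a named gene, were chosen after their values were seen. Alternatives were other pseudocounts, filters, thresholds and scalings; those with 1 RPKM in both libraries, with GC bins along chromosomes and with neighbours subtracted were chosen after seeing the data. Python 3.11.15, numpy 2.4.6, pandas 2.3.3, scipy 1.17.1 and matplotlib 3.10.9 were used. A few list members are counted with their lists and not reported here by name.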

Additional observations from a re-analysis of the deposited data

How the results depend on the processing

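Counts of genes at least 2-fold apart depended on how low values were treated. With a pseudocount of 0.1 there were 616 (321 higher in F10 and 295 lower), and the share called was 28.3% of genes averaging under 2 RPKM, 8.53% of those from 2 to 5 RPKM and 2.41% of those from 5 to 20. With at least 5 RPKM in either library there were 173 (72 higher and 101 lower), with 19 interferon and 4 antigen presentation genes lower and 9 muscle genes higher. With at least 1 RPKM in both libraries, chosen after seeing the data, there were 172 (71 higher and 101 lower), with 19 interferon genes lower and 4 muscle genes higher. A threshold of 1.5-fold gave 1308 genes (624 higher and 684 lower) and one of 4-fold gave 44 (19 higher and 25 lower). Of 581 medians of lists under alternatives, 4 changed sign from a value of at least 0.1 in size. Of the others, 511 stayed within 0.1 of their value and 66 moved further. Sign changes of medians smaller than 0.1 were counted among those others, as for ABC transporters (-0.06, and 0.06 with no filter). With no filter, the medians moved to 0.58 for contractile genes, -0.49 for class I chains, -0.51 for peptide loading and -0.14 for surface ligands. Of the 4 sign changes from at least 0.1 in size, proteoglycans (-0.15) and integrins (0.0125) changed with at least 5 RPKM. The rest were matrix proteases at 0.0187 with no filter and integrins at 0.16 with neighbours subtracted. The cause was not tested. No paired analysis was possible because each subline has 1 library. Depth sets a limit of 3 fragments, 0.573 RPKM at 1 kb in F0.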
